A study of Rattus norvegicus with 9 samples.

Results

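The genes described here are axon guidance ligands and receptors on a rat expression array: the netrin, Slit, semaphorin and ephrin ligands, their Dcc, Unc5, Robo, plexin, neuropilin and Eph receptors, and the neogenin system of Neo1 and Rgma. They were chosen by gene symbol alone, from the probe sets (groups of short array probes that report 1 transcript) that carry a single symbol, with the probe set of the highest mean over the 9 arrays standing for each gene. This gave 45 of 10411 genes. Of these, 20 encode ligands and 23 encode receptors, while Unc50 and Unc5cl came in through the first letters of their symbols and belong to neither class. The genes were measured in ventral midbrain of rat embryos at embryonic day 11 (MesE11, 3 arrays) and in primary cultures grown from that dissected region (MesPC, 6 arrays). Per the labels, embryos of 4 pregnant rats were mixed and divided into 3 groups, and each group's ventral midbrains were either pooled as tissue or dissociated and plated as duplicate cultures, kept for 9 days in vitro. The labels name no strain, genotype or added agent for either group. The culture thus differed from the tissue in dissociation, plating and time, which cannot be told apart. The question, by the title of the series, is how gene expression in such neuronal cultures relates to that in the embryonic mesencephalon.

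Guidance molecules steer growing axons and migrating cells. Netrins are secreted and attract growth cones through Dcc or repel them through Unc5 receptors, and Slits are secreted repellents read by Robo receptors. Secreted class 3 semaphorins bind neuropilins, which pass the signal on through class A plexins, while membrane-bound semaphorins of classes 4 to 6 bind plexins directly. Ephrins stay on the membrane, so that they and the Eph receptors signal between touching cells, in both directions. In the ventral midbrain the floor plate is a known source of netrin, and dopaminergic axons use netrin, Slit, semaphorin and ephrin cues on their way to the forebrain.

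In culture 10 of the 45 guidance genes were higher than in tissue and 16 were lower, and 19 did not pass the test. The highest rise was that of the ligand Ntn1 (2.62-fold) and the deepest falls were those of the receptors Epha4 (2.99-fold) and Epha5 (2.12-fold), the 3 guidance genes that passed at 2-fold or more. The test was limma with Benjamini-Hochberg adjustment over all 15866 probe sets and a threshold of 0.05. Values are given on the log2 intensity scale, and each difference is the culture mean minus the tissue mean with its standard error, so that 1 unit is a 2-fold change. Among all genes the same test called 21.9% higher and 22.7% lower, against 22.2% and 35.6% of the guidance genes, so the share of rises was near the background and the share of falls above it. The median difference was -0.13 over the guidance genes and -0.06 over all genes. Of the ligands 6 rose and 8 fell, and of the receptors 3 rose and 8 fell. For 11 guidance genes the lowest of the 6 cultures exceeded the highest of the 3 tissue arrays, for 14 the reverse held, and for 20 the groups overlapped; over all genes 44.4% lay to one side or the other. With a random block for the tissue arrays and the 2 sets of culture arrays described next, 8 guidance genes were higher (17.8%) and 9 lower (20%), against 13.2% and 9.11% of all genes. Among the 26 guidance genes left without the dimmest 40% of probe sets, 11 were higher (42.3%) and 7 lower (26.9%), with a median difference of 0.10, against 28.4%, 20.4% and 0.02 for all genes kept. Of the 16 genes called lower, Epha3, Epha8 and Sema3b had mean levels in both groups within the range of the bacterial control probe sets, 4.80 to 6.68.

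**Figure D1:**
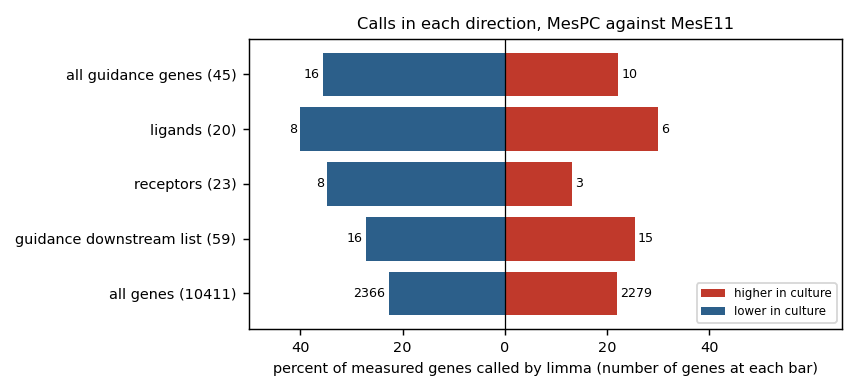
Percent of measured genes called by limma in each direction for all guidance genes, ligands, receptors, a list of genes that act downstream of guidance receptors, and all genes, with the number of genes at each bar (red, higher in MesPC; blue, lower). The guidance genes had 16 falls and 10 rises, where all genes had 2366 falls and 2279 rises.

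The cultures were not alike. Over all probe sets Pearson's r was 0.997 to 0.998 within MesPC replicates 1 to 3 and within 4 to 6, and 0.982 to 0.987 across these sets. Against the tissue arrays r was 0.943 to 0.953 for replicates 1 to 3 and 0.966 to 0.974 for replicates 4 to 6. The second set was thus nearer to tissue over all probe sets, not only in guidance genes. The labels give no reason for the split, so the sets are described and not tested against each other, and with duplicate cultures of 3 embryo groups the 6 arrays may stand for fewer than 6 independent cultures. All p-values therefore reflect array-to-array spread, which may in part be technical. As markers of the cells that a midbrain culture can hold, neuron genes were called lower for 5 of 9, dopaminergic neuron genes for 6 of 6, endothelium genes for 4 of 6, microglia genes for 4 of 7, erythroid genes for 5 of 5 and oligodendrocyte lineage genes for 1 of 5, with 0 higher in each of these lists. Fibroblast or mesenchyme genes were higher for 9 of 10, with Thy1 lower, astrocyte genes for 5 of 8 and midbrain and floor plate genes for 2 of 3 (Otx2 and Shh, with Foxa2 not called). Over all genes the same test called 22.7% lower and 21.9% higher. The oligodendrocyte lineage share of 20% lower was near that background. The mean level of the 9 neuron genes was 12.21 to 12.32 in the tissue arrays, 10.53 to 10.75 in MesPC replicates 1 to 3 and 11.70 to 11.74 in replicates 4 to 6. That of the mesenchyme genes was 7.89 to 8.12, 10.45 to 10.58 and 10.36 to 10.42 in the same order; 1 of these 10, Twist1, lay in the range of the bacterial control probes. In bulk samples fewer cells of a type and less RNA per cell cannot be told apart. The part of these cell types in the guidance gene differences was not tested.

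**Figure D2:**
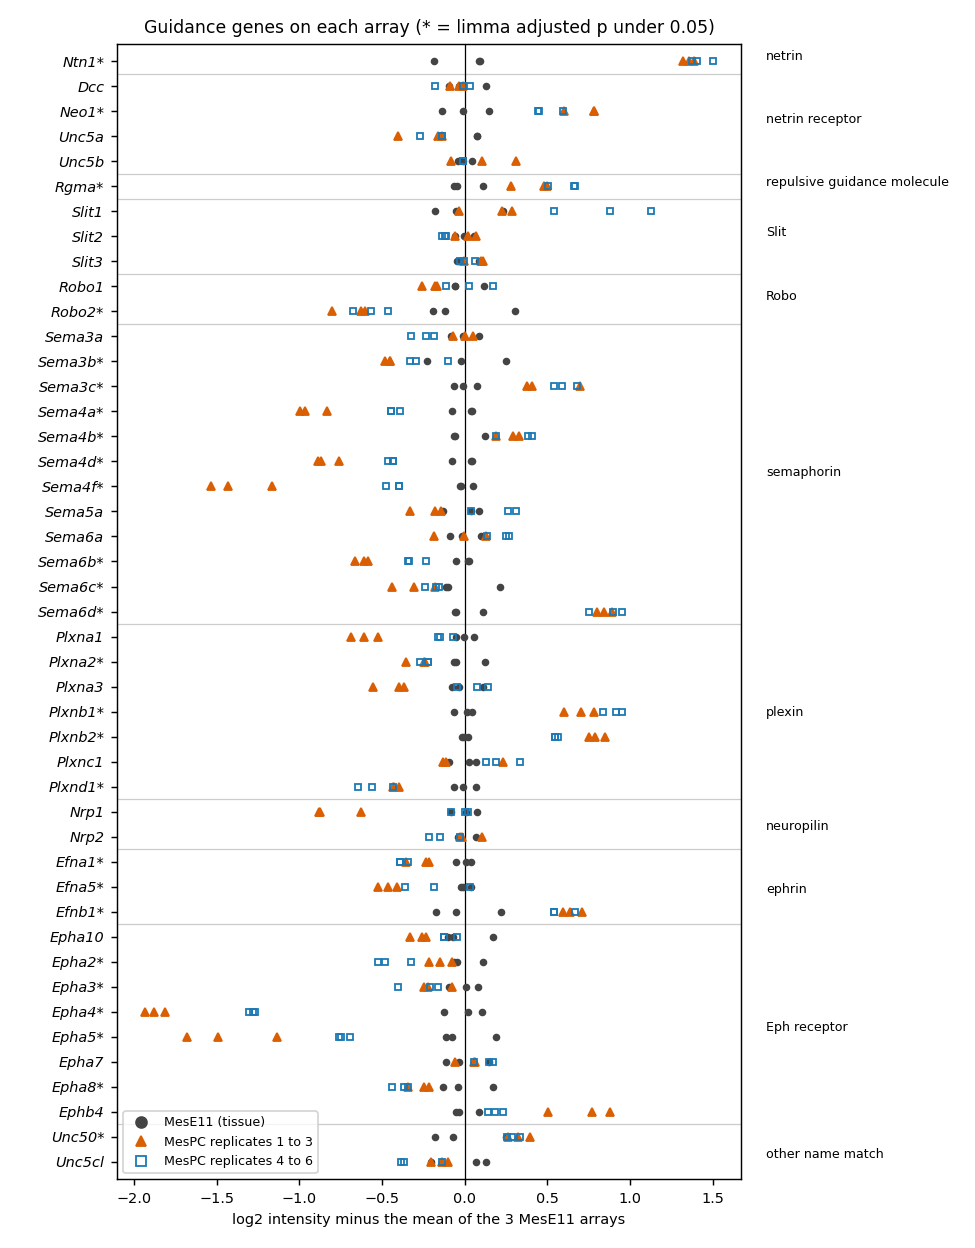
Log2 intensity of each of the 45 guidance genes on each array, minus the mean of the 3 MesE11 arrays (horizontal axis), grouped by family (circles, MesE11; triangles, MesPC replicates 1 to 3; open squares, MesPC replicates 4 to 6; asterisks, limma adjusted p under 0.05). Ntn1 lies farthest to the right in culture and Epha4 farthest to the left, and the triangles of Sema4f, Nrp1 and Epha5 stand apart from their squares.

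Sequences before the start of transcription are shown for 5 members: both class B plexins and the ligand Sema6d, which rose in culture, and Epha5 and Sema4f, which fell and differed most between the culture sets among the members with an entry, Nrp1 aside. They are the 250 bases before the RefSeq start on the assembly GRCr8, 5′ to 3′ on the gene's strand, for Plxnb1 at chr8:118622911-118623160 (plus strand), Plxnb2 at chr7:122137949-122138198 (minus), Sema6d at chr3:132337106-132337355 (plus), Epha5 at chr14:24007872-24008121 (plus) and Sema4f at chr4:116995443-116995692 (minus). Capitals mark any match, on either strand, of the GC box GGGCGG, the TATA motif TATAAA, the E-boxes CAGCTG and CACGTG, or the AP-1 motif TGANTCA. GC boxes can overlap each other, as in Plxnb1, and in these 5 sequences no match of one motif overlaps that of another.
Plxnb1: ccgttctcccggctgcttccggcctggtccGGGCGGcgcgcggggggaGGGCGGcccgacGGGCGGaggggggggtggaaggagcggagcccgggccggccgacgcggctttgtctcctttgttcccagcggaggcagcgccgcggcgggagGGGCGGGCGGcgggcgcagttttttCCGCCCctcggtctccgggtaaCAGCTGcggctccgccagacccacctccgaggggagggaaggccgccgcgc
Plxnb2: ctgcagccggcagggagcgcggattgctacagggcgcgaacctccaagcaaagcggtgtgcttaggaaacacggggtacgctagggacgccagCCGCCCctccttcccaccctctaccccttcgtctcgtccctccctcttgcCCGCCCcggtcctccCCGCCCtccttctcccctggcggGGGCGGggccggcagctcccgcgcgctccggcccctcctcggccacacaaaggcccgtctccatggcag
Sema6d: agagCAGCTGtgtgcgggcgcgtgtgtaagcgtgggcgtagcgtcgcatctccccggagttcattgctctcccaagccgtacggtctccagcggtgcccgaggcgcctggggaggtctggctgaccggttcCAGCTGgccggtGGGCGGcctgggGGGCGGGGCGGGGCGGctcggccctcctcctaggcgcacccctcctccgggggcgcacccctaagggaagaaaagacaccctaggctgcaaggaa
Epha5: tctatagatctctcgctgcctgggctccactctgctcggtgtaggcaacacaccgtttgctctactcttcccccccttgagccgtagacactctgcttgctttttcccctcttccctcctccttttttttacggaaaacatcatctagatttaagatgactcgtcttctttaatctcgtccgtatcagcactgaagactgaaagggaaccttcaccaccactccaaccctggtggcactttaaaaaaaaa
Sema4f: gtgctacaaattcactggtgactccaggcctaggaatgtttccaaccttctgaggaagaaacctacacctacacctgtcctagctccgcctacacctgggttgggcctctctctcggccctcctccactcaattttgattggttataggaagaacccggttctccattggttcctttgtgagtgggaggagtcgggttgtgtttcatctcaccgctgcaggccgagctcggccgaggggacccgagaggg
The first 3 hold GC boxes, with 6 matches in Plxnb1, 4 in Plxnb2 and 4 in Sema6d, and the others hold 0 matches of any of the 5 motifs. An entry was found for 36 of the 45 guidance genes. The GC box stood in 22 of these 36, against 30.5% of 33469 promoters of this length, and in 7 of 9 genes that rose and 7 of 13 that fell. The guidance counts are per gene, and the background is per promoter over 27457 genes, not limited to those on the array. The 9 that rose include Unc50, with 2 GC boxes. The median GC content was 64.4% for the guidance genes and 51.2% for all promoters, 71.6% for the genes that rose and 60.4% for those that fell. TATAAA stood in 0 of 36 (12.9% of all promoters), CAGCTG in 6 (12%), CACGTG in 2 (5.59%) and TGANTCA in 1 (6.34%). A match describes the letters and not a binding site.

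Ntn1, the secreted netrin-1, was higher in every culture array. The tissue arrays read 11.39, 11.40 and 11.12. MesPC replicates 1 to 3 read 12.66, 12.70 and 12.63, and replicates 4 to 6 read 12.71, 12.68 and 12.81. Every culture array exceeded every tissue array and the culture sets overlapped. The difference was 1.39 ± 0.07 (adjusted p = 6.06e-07). Its 2 further probe sets also rose, by 1.24 ± 0.19 and 0.70 ± 0.21, but there replicates 1 to 3 lay above 4 to 6.

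Of the receptors that read netrin, neither Dcc nor the Unc5 genes were called over all arrays. Dcc, the receptor for attraction, read 6.66, 6.88 and 6.73 in tissue, 6.67, 6.75 and 6.73 in MesPC replicates 1 to 3 and 6.58, 6.75 and 6.79 in replicates 4 to 6. These values overlapped throughout, and the difference was -0.05 ± 0.07 (adjusted p = 0.586). The Unc5 receptors for repulsion had differences of -0.21 ± 0.08 for Unc5a (adjusted p = 0.0632) and 0.05 ± 0.08 for Unc5b (adjusted p = 0.63). Unc5a passed, as lower, when each array was centred on its median and without MesE11 replicate 1. Unc5c was not analysed here, having no probe set under that symbol alone, as also Robo3, Sema3f, Efnb2, Ephb1 and Ephb2.

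Both members of the neogenin system rose. Neo1, neogenin, a relative of Dcc that binds netrins and repulsive guidance molecules, read 8.59, 8.31 and 8.44 in tissue. It read 9.05, 9.23 and 9.23 in MesPC replicates 1 to 3 and 8.90, 9.04 and 8.89 in replicates 4 to 6, all above tissue, with replicates 1 to 3 just above 4 to 6. The difference was 0.61 ± 0.10 (adjusted p = 0.000896). A further probe set of Neo1, at 5.39 to 5.54 in culture, gave -0.06 ± 0.05 and was not called. Rgma, a membrane-anchored repellent that signals through neogenin, rose by 0.51 ± 0.09 (adjusted p = 0.00136), from 11.57 to 11.74 in tissue to 11.91 to 12.12 in MesPC replicates 1 to 3 and 12.13 to 12.30 in replicates 4 to 6.

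No Slit was called. Slit1 had the widest spread, with 8.51, 8.92 and 8.64 in tissue and 8.91, 8.65 and 8.98 in MesPC replicates 1 to 3, which overlapped, and 9.57, 9.82 and 9.23 in replicates 4 to 6, which all lay above both. Its difference over all cultures was 0.50 ± 0.23 (adjusted p = 0.103), and it passed with MesPC replicates 4 to 6 alone (0.85, adjusted p = 0.000573) and without MesPC replicate 2 (0.61, adjusted p = 0.04). Slit2 read 5.32, 5.43 and 5.37 in tissue and 5.24 to 5.45 in culture with a median of 5.29. It lay within the bacterial control range on every array, so its level was not measured above that background. Slit3 read 7.11, 6.98 and 6.99 in tissue and 6.999 to 7.14 in culture with a median of 7.06, and it passed (0.16, adjusted p = 0.036) once the arrays were quantile normalized again.

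Of the Slit receptors, Robo2 fell. It read 7.36, 7.29 and 7.79 in tissue, 6.68, 6.88 and 6.85 in MesPC replicates 1 to 3 and 6.80, 6.92 and 7.02 in replicates 4 to 6. Every culture array lay below every tissue array, the culture sets overlapped, and the difference was -0.62 ± 0.11 (adjusted p = 0.00164). Robo1 read 9.15, 9.33 and 9.15 in tissue, 8.95, 9.03 and 9.04 in MesPC replicates 1 to 3 and 9.10, 9.38 and 9.24 in replicates 4 to 6. Only the first culture set lay below tissue, and over all cultures the difference was -0.09 ± 0.09 (adjusted p = 0.468). The difference between the Robo genes was not tested.

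**Figure D3:**
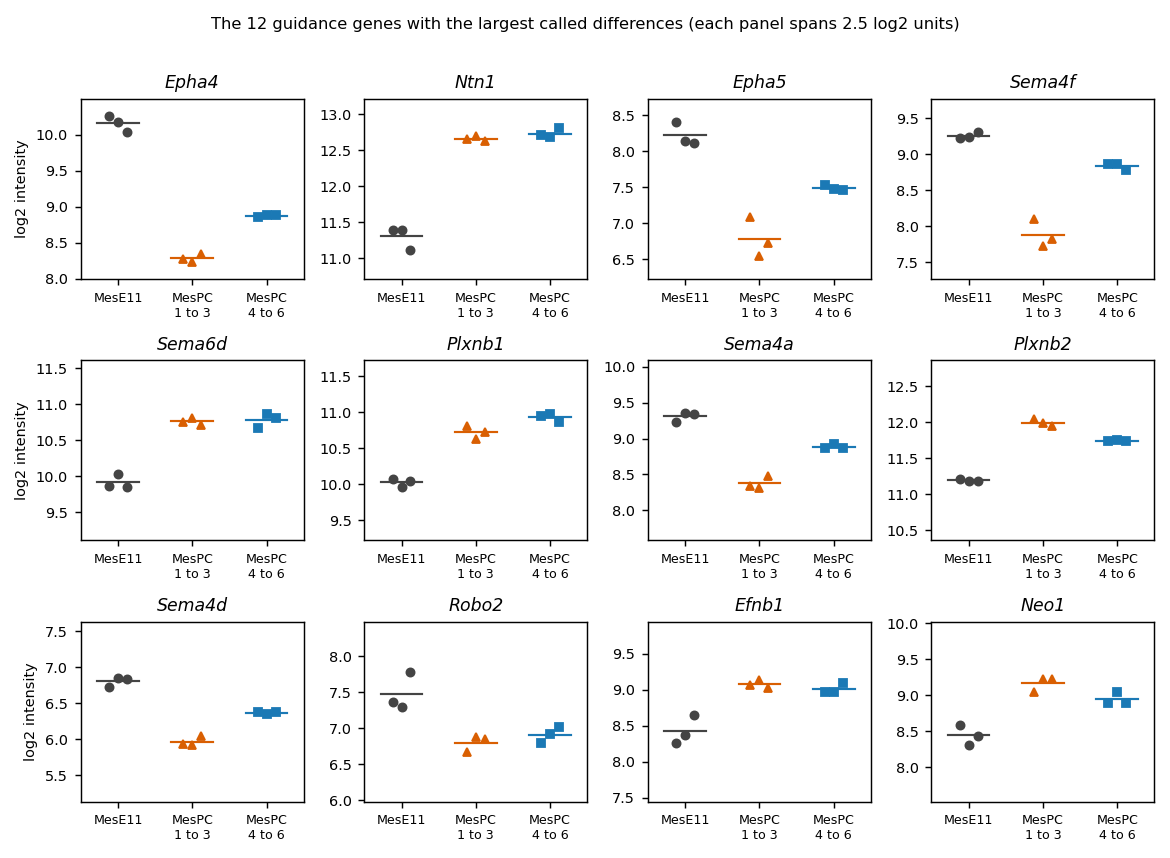
Log2 intensity on each array (points) and the mean of each array set (lines) for the 12 guidance genes with the largest called differences whose culture and tissue values did not overlap; each panel spans 2.5 log2 units on an axis of its own. Epha4 fell from a tissue mean of 10.16 and Ntn1 rose from 11.31. Replicates 4 to 6 lay between replicates 1 to 3 and tissue for Epha4, Epha5, Sema4f, Sema4a and Sema4d, which fell. The same held for Neo1 and Plxnb2, which rose.

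Of the 12 semaphorins 3 (25%) were called higher and 6 (50%) lower, against 21.9% and 22.7% of all genes, with Sema3b, 1 of the 6, at background level. The class 4 semaphorins, membrane ligands of class B plexins, were called in every case: Sema4a, Sema4d and Sema4f fell and Sema4b rose. Sema4f read 9.23, 9.24 and 9.31 in tissue, 8.09, 7.73 and 7.83 in MesPC replicates 1 to 3 and 8.86, 8.86 and 8.79 in replicates 4 to 6. Both culture sets lay below tissue, the first far more so. The difference was -0.90 ± 0.27 (adjusted p = 0.0244), and the call was lost without MesE11 replicate 1, 2 or 3 (adjusted p = 0.0672, 0.0652 and 0.0829).

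Sema4a read 9.23, 9.35 and 9.35 in tissue, 8.35, 8.32 and 8.48 in MesPC replicates 1 to 3 and 8.86, 8.92 and 8.86 in replicates 4 to 6, a difference of -0.68 ± 0.15 (adjusted p = 0.00526). Sema4d, the ligand of plexin-B1, read 6.72, 6.85 and 6.84 in tissue, 5.93, 5.91 and 6.04 in MesPC replicates 1 to 3 and 6.37, 6.34 and 6.37 in replicates 4 to 6, a difference of -0.64 ± 0.12 (adjusted p = 0.0024). In both genes the 3 array sets were fully apart, in the order tissue, replicates 4 to 6, replicates 1 to 3. All culture values of Sema4d lay within the bacterial control range, and its tissue values lay above it. Sema4b rose by 0.30 ± 0.07 (adjusted p = 0.00815), a call lost with the random block.

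Class 6 semaphorins are membrane ligands of class A plexins. Sema6d read 9.87, 10.03 and 9.86 in tissue, 10.76, 10.81 and 10.72 in MesPC replicates 1 to 3 and 10.67, 10.87 and 10.82 in replicates 4 to 6. All cultures lay above tissue and the culture sets overlapped, with a difference of 0.86 ± 0.06 (adjusted p = 6.08e-06). Sema6b fell by 0.46 ± 0.10 on the log2 scale (adjusted p = 0.00501) and Sema6c by 0.25 ± 0.09 (adjusted p = 0.0479), the latter not called with the random block, with MesPC replicates 4 to 6 alone or in 8 of the 9 fits that left out 1 array. Sema6a was not called, at 0.10 ± 0.10.

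Among the secreted class 3 semaphorins Sema3c rose. Sema3c read 9.30, 9.22 and 9.16 in tissue, 9.61, 9.93 and 9.63 in MesPC replicates 1 to 3 and 9.81, 9.91 and 9.77 in replicates 4 to 6, a difference of 0.55 ± 0.08 (adjusted p = 0.000604). All cultures lay above tissue. Sema3a read 6.06, 6.23 and 6.13 in tissue and 5.82 to 6.19 in culture with a median of 6.02, a difference of -0.13 ± 0.09 (adjusted p = 0.261), and with MesPC replicates 4 to 6 alone it passed (-0.25, adjusted p = 0.0182). Sema3b gave a difference of -0.35 ± 0.11 (adjusted p = 0.0306), a call lost with the random block. Both Sema3a and Sema3b lay within the bacterial control range on every array, so that neither level was measured above that background. Sema5a, a membrane semaphorin with thrombospondin repeats, was not called (-0.01 ± 0.14). A dimmer probe set of Sema5a was called lower, at -0.20 ± 0.06 (adjusted p = 0.0252). It read 6.21 to 6.44 in tissue and 5.99 to 6.13 in culture, within the bacterial control range.

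Both class B plexins on the array rose; of their class 4 semaphorin ligands, as given above, 3 fell and Sema4b rose. Plxnb1 read 10.07, 9.96 and 10.04 in tissue, 10.81, 10.62 and 10.73 in MesPC replicates 1 to 3 and 10.94, 10.98 and 10.86 in replicates 4 to 6, a difference of 0.80 ± 0.08 (adjusted p = 4.78e-05). Plxnb2 read 11.21, 11.19 and 11.18 in tissue, 12.04, 11.98 and 11.94 in MesPC replicates 1 to 3 and 11.74, 11.76 and 11.74 in replicates 4 to 6, a difference of 0.67 ± 0.08 (adjusted p = 0.000149). Every culture array exceeded every tissue array for both, yet the order of the culture sets was opposite: Plxnb1 was higher in replicates 4 to 6 and Plxnb2 in replicates 1 to 3.

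Of the class A plexins, which carry class 3 and class 6 semaphorin signals, Plxna2 fell by 0.26 ± 0.06 on the log2 scale (adjusted p = 0.00619), a call lost with the random block. Plxna1 read 11.18, 11.22 and 11.28 in tissue, 10.70, 10.54 and 10.62 in MesPC replicates 1 to 3 and 11.07, 11.16 and 11.08 in replicates 4 to 6. All cultures lay below tissue, by far more in the first set than in the second, and the difference of -0.37 ± 0.14 was not called (adjusted p = 0.0604). It passed when the arrays were quantile normalized again (adjusted p = 0.0224), centred (adjusted p = 0.0334) or the mean of its probe sets was taken (adjusted p = 0.0161). It also passed with MesPC replicates 1 to 3 alone (-0.61, adjusted p = 3.45e-05) and without MesPC replicate 4, 5 or 6. Plxna3 differed by -0.19 ± 0.15 (adjusted p = 0.318), with MesPC replicates 1 to 3 below tissue and 4 to 6 overlapping it.

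Plxnd1, a receptor known from vessels and some neurons, fell by 0.48 ± 0.07 on the log2 scale (adjusted p = 0.000388), and all 6 culture values lay below tissue. Endothelium markers fell in the same arrays for 4 of 6, where 22.7% of all genes were called lower. Their mean level was 8.14 to 8.23 in tissue, 7.14 to 7.18 in MesPC replicates 1 to 3 and 6.87 to 6.97 in replicates 4 to 6. Pecam1 lay in the range of the bacterial controls, and the part of these markers in the Plxnd1 difference was not tested. Plxnc1, the receptor of Sema7a, read 9.37, 9.42 and 9.26 in tissue and 9.22 to 9.69 in culture with a median of 9.51. It was not called (0.11 ± 0.11, adjusted p = 0.43) and passed with MesPC replicates 4 to 6 alone (0.22, adjusted p = 0.04).

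The neuropilins were not called over all cultures. Nrp1, the co-receptor of Sema3a, read 10.60, 10.54 and 10.45 in tissue, 9.90, 9.65 and 9.65 in MesPC replicates 1 to 3 and 10.55, 10.53 and 10.45 in replicates 4 to 6. The first culture set lay wholly below tissue and the second overlapped it. The difference over all cultures was -0.41 ± 0.22 (adjusted p = 0.161), and with MesPC replicates 1 to 3 alone it was -0.79 (adjusted p = 2.8e-05). Nrp2 read 6.98, 7.08 and 6.97 in tissue and 6.80 to 7.11 in culture with a median of 6.98, a difference of -0.06 ± 0.07 (adjusted p = 0.547).

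The ephrins divided: the transmembrane ligand Efnb1 rose and the membrane-anchored Efna1 and Efna5 fell. Efnb1 read 8.25, 8.38 and 8.65 in tissue, 9.07, 9.13 and 9.02 in MesPC replicates 1 to 3 and 8.97, 8.97 and 9.10 in replicates 4 to 6. All cultures lay above tissue and the culture sets overlapped, with a difference of 0.62 ± 0.08 (adjusted p = 0.000318). A further probe set of Efnb1 pointed the same way without being called (0.50 ± 0.22, adjusted p = 0.0891). There MesPC replicates 1 to 3 (8.39 to 8.66) lay above replicates 4 to 6 (7.74 to 8.09), which overlapped tissue. Efna1 fell by 0.32 ± 0.06 on the log2 scale (adjusted p = 0.00199). Its culture mean of 6.61 lay within the bacterial control range and its tissue mean of 6.93 above it. A further probe set of Efna1 gave -0.15 ± 0.06 and was not called (adjusted p = 0.0557).

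Efna5, a repellent for axons that bear EphA receptors, read 9.59, 9.53 and 9.54 in tissue, 9.09, 9.03 and 9.14 in MesPC replicates 1 to 3 and 9.58, 9.37 and 9.19 in replicates 4 to 6. The first culture set lay below tissue and the second reached it. The difference of -0.32 ± 0.11 passed narrowly (adjusted p = 0.0439). The call was lost with the random block (adjusted p = 0.181) and with MesPC replicates 4 to 6 alone (adjusted p = 0.149). It was also lost without any 1 tissue array or any 1 of MesPC replicates 1, 2, 3 and 6. A further, dimmer probe set of Efna5 gave -0.10 ± 0.08 and was not called (adjusted p = 0.284).

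Of the 7 EphA receptors 5 were called lower in culture and 0 higher, where 22.7% and 21.9% of all genes were; only Epha4 and Epha5 kept the call with the random block. Epha4, which binds ephrins of both the A and B classes, read 10.27, 10.18 and 10.04 in tissue. It read 8.28, 8.23 and 8.35 in MesPC replicates 1 to 3 and 8.86, 8.89 and 8.88 in replicates 4 to 6. The 3 array sets were apart, with the second culture set nearer to tissue, as it also was by correlation over all probe sets. The difference was -1.58 ± 0.17 (adjusted p = 7.92e-05), and a further probe set gave -1.60 ± 0.13 (adjusted p = 1.24e-05).

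Epha5, a receptor of ephrin-A5, read 8.41, 8.15 and 8.11 in tissue, 7.09, 6.54 and 6.73 in MesPC replicates 1 to 3 and 7.53, 7.47 and 7.46 in replicates 4 to 6. The order of the sets was that of Epha4. The difference was -1.09 ± 0.22 (adjusted p = 0.0037). Epha2, Epha3 and Epha8 had smaller falls, with differences of -0.30, -0.22 and -0.32, and all 3 calls were lost with the random block and when the arrays were quantile normalized again. Those of Epha2 and Epha3 were also lost when some single arrays were left out. The mean levels of Epha3 and Epha8 lay within the bacterial control range in tissue and in culture. Epha7 and Epha10 were not called, at 0.07 ± 0.07 and -0.19 ± 0.08, although a dimmer probe set of Epha7 gave -0.40 ± 0.08 (adjusted p = 0.00374).

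Ephb4, the receptor of ephrin-B2 and the single EphB gene measured, read 8.49, 8.47 and 8.61 in tissue, 9.03, 9.40 and 9.30 in MesPC replicates 1 to 3 and 8.70, 8.75 and 8.66 in replicates 4 to 6. Every culture array lay above every tissue array, and the first set stood highest. The difference of 0.45 ± 0.17 missed the threshold (adjusted p = 0.0517), and it passed with either culture set alone and without MesPC replicate 4, 5 or 6. Outside these families, Unc50, a Golgi protein, rose by 0.31 ± 0.09 (adjusted p = 0.0165, lost with the random block), and Unc5cl, a relative of the intracellular part of the Unc5 receptors, was not called (-0.22 ± 0.09, adjusted p = 0.0806).

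Between the culture sets, MesPC replicates 4 to 6 all lay above replicates 1 to 3 for 18 of the 45 guidance genes (40%), against 22.4% of all genes, and all below for 8 (17.8%), against 26% of all genes. The median of replicates 4 to 6 minus replicates 1 to 3 was 0.10 over the guidance genes and -0.03 over all genes. In 14 of the 18, replicates 1 to 3 lay wholly below tissue: Sema4f, Nrp1, Epha5, Epha4, Sema4a, Plxna3, Plxna1, Sema5a, Sema4d, Sema6b, Efna5, Robo1, Sema3b and Epha10. Replicates 4 to 6 lay below tissue as well in 7 of these and overlapped it in the other 7. The 18 were picked with replicates 1 to 3 as the lower set, which by itself favours that set lying below tissue. Without that condition, both sets lay below tissue in 31.1% of guidance genes and 23.3% of all genes. Replicates 1 to 3 lay below and 4 to 6 overlapped tissue in 15.6% of guidance genes and 9.14% of all genes. Slit1 and Sema6a differed from this, with replicates 4 to 6 above tissue and 1 to 3 overlapping it, and Plxnb1 and Rgma had both sets above tissue. Markers of several cell types also differed between the sets. Replicates 4 to 6 lay above 1 to 3 for 9 of 9 neuron, 4 of 6 dopaminergic neuron and 3 of 3 midbrain and floor plate markers. Replicates 1 to 3 lay above for 5 of 5 oligodendrocyte lineage markers. For Olig1 the means of replicates 1 to 3 and 4 to 6 were 12.46 and 10.01. They were far closer for Mag (6.75 and 6.59), Mbp (6.92 and 6.72), Sox10 (7.22 and 6.97) and Mog (6.31 and 6.11). The mean levels of Mog lay within the bacterial control range in tissue and in culture. Replicates 1 to 3 also lay above for 4 of 6 endothelium, 3 of 5 erythroid, 3 of 8 astrocyte, 4 of 10 mesenchyme and 1 of 7 microglia markers. In the opposite direction were 1 astrocyte and 1 mesenchyme marker. The part of these cell types in the guidance gene values was not tested.

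The largest distances between the sets, replicates 4 to 6 minus 1 to 3, were 0.95 for Sema4f, 0.77 for Nrp1, 0.70 for Epha5, 0.69 for Slit1 and 0.59 for Epha4. In the other direction they were -0.54 for Ephb4, -0.30 for Epha2, -0.25 for Plxnb2, -0.24 for Sema3a and -0.23 for Neo1. The sets overlapped in the brightest probe set for 19 guidance genes (42.2%, against 51.6% of all genes), among them Ntn1, Sema6d, Efnb1, Sema3c, Sema4b and Unc50, which are 6 of the 10 called higher. They also overlapped for 5 of the 16 called lower (31.2%), while over all genes the share was 48.6% of those called higher and 48.6% of those called lower. No guidance gene had one set wholly above and the other wholly below tissue in its brightest probe set.

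**Figure D4:**
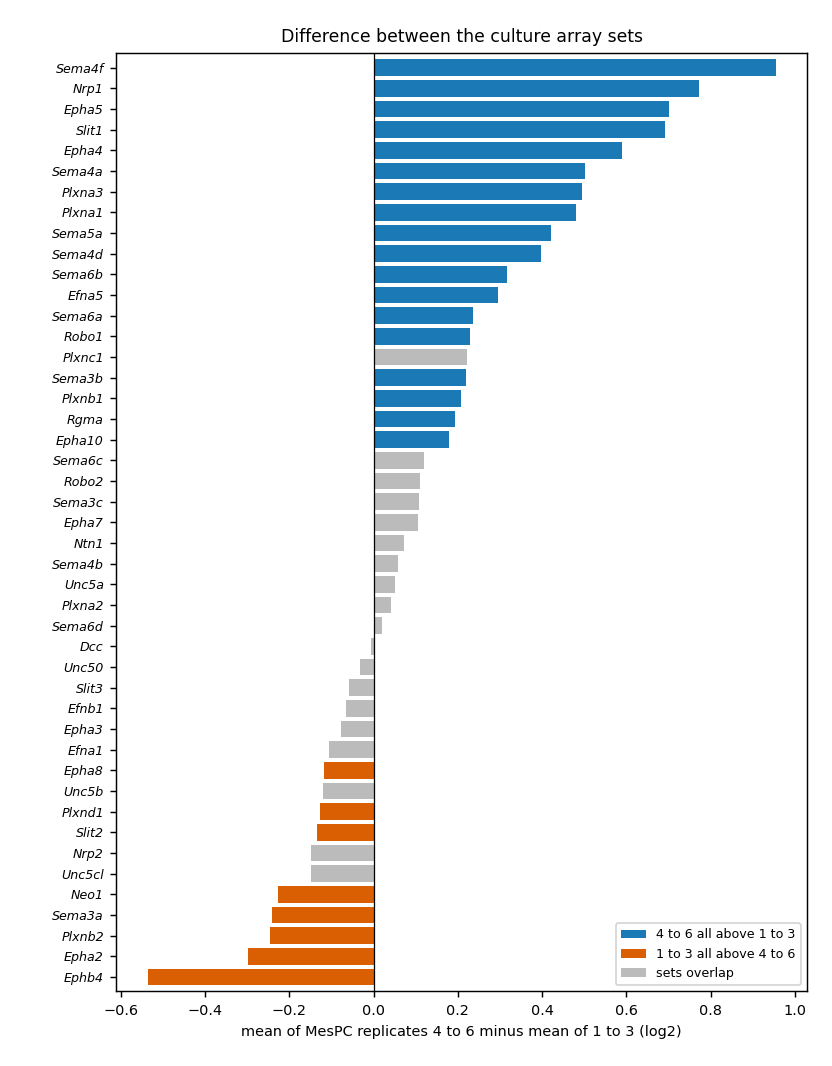
Mean of MesPC replicates 4 to 6 minus the mean of MesPC replicates 1 to 3, in log2 units, for each of the 45 guidance genes (blue, all of 4 to 6 above all of 1 to 3; orange, all of 1 to 3 above all of 4 to 6; grey, overlapping). Sema4f (0.95) and Nrp1 (0.77) head the 18 blue bars and Ephb4 (-0.54) stands at the end of the 8 orange ones.

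Genes that act downstream of guidance receptors or beside them were called about as often as genes at large. Of 76 listed genes 59 were measured, of which 15 were higher (25.4%) and 16 lower (27.1%), against 21.9% and 22.7% of all genes, with a median difference of -0.09 against -0.06. Higher were Itgb1, the beta-1 integrin chain, by 1.35 ± 0.07 (adjusted p = 5.16e-07), the receptor phosphatase Ptprz1 by 1.19 ± 0.22, the Rac activator Dock1 by 1.14 ± 0.20 and Flrt2, a membrane ligand of Unc5 receptors, by 1.03 ± 0.16. The actin-binding Ablim1 fell by 1.55 ± 0.28 on the log2 scale (adjusted p = 0.00194). Limk2, a kinase that acts on cofilin, fell by 1.15 ± 0.21, Dpysl3, a collapsin response mediator, fell by 1.06 ± 0.25, and Chn2, a chimaerin that inhibits Rac, fell by 0.94 ± 0.18. Ablim1 read 9.62, 9.48 and 9.55 in tissue, 7.58, 7.49 and 7.43 in MesPC replicates 1 to 3 and 8.56, 8.57 and 8.38 in replicates 4 to 6, the order seen for Epha4. Itgb1 read 10.41, 10.51 and 10.38 in tissue and 11.67 to 11.93 in culture, where the sets overlapped. The number of falls was 8 with the random block, 27 with MesPC replicates 1 to 3 alone and 10 without MesE11 replicate 3, and after a further quantile normalization 11 were higher and 18 lower. Of all genes 9.11% were lower with the random block, 27% with MesPC replicates 1 to 3 alone and 14.7% without MesE11 replicate 3. After the further quantile normalization 20.9% of all genes were higher and 23% lower. Between the culture sets 26 of the 59 (44.1%) had replicates 4 to 6 above, against 22.4% of all genes, and 13 (22%) had replicates 1 to 3 above, against 26%.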

How the data were processed

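RNA of 9 samples was hybridised to Affymetrix rat arrays, 3 of tissue and 6 of culture. The deposited values are log2 intensities that the authors made with RMA, per the submitters' processing notes, which corrects background, normalizes arrays to each other and summarises probe sets; the sources used here give no version of it. Differences are thus relative to the other probe sets of an array, and dim probe sets understate change. Array medians were 8.61 to 8.67. The 3′ minus 5′ control probe sets of beta-actin gave 0.515 to 0.798 in tissue, 0.350 to 0.490 in MesPC replicates 1 to 3 and 0.536 to 0.669 in 4 to 6. Those of GAPDH gave 0.705 to 0.775, 0.558 to 0.610 and 0.573 to 0.729 in the same order. The part of RNA quality in the differences was not tested.

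Of 15923 probe sets, 57 controls were left out. Symbols came from the platform annotation, in which 12783 probe sets had 1 symbol, 312 had several and the rest were not listed. limma 3.58.1 in R 4.3.3 (lmFit, eBayes) was fitted on 15866 probe sets over all 9 arrays with 1 term for culture, with Benjamini-Hochberg adjustment. No array was dropped. The fit was run on simulated arrays with independent noise and planted changes. These held no culture sets, so they cannot show how the p-values behave with such sets.

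The genes whose array values are given were the 12 with the largest called differences without overlap, the 6 with the largest gaps between culture sets, and 23 fixed names, of which 6 had no probe set of their own; others are given by difference or range, or were chosen after their values were seen. Up to 4 called genes in each direction were named from the downstream list. The members and lists were chosen with earlier results of these data known. The range of 27 bacterial control probe sets (4.80 to 6.68) served as a background. Alternatives were quantile normalization again, median centring, no dim probe sets, gene means, a random block, a replicate block, either culture set alone and each array left out.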

Additional observations from a re-analysis of the deposited data

Results flagged for a closer look

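Further probe sets of Nrp1 and Plxna3 lay on opposite sides of tissue in the culture sets. The further Nrp1 probe set read 8.84, 8.91 and 8.97 in tissue, 8.47, 8.56 and 8.34 in MesPC replicates 1 to 3 and 9.18, 9.02 and 9.16 in replicates 4 to 6. The mean of the first set differed from that of tissue by -0.45 on the log2 scale and that of the second by 0.22, each in 3 of 3 arrays. That of Plxna3 read 10.16, 10.18 and 10.16 in tissue, 9.82, 9.77 and 9.78 in replicates 1 to 3 (-0.37 from tissue) and 10.38, 10.40 and 10.22 in replicates 4 to 6 (0.17 from tissue). These differences between the sets were not tested. Over all genes, 1.08% had replicates 1 to 3 wholly below and replicates 4 to 6 wholly above tissue in their brightest probe set, and 0.528% the reverse. Plxna2 in MesPC replicate 2, at 9.43, lay apart from the other 5 cultures, which read 9.51 to 9.56; chance flags about 1 in 20 groups in this way.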

How the results depend on the processing

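The counts of guidance genes, 10 higher and 16 lower, kept within 1.5 times under 6 of the 8 other settings and when single arrays were left out (9 to 11 higher, 11 to 15 lower). Exceptions were the falls without the dimmest 40% of probe sets (7, of 26 genes measured) and with a random block for the array sets (9). The first tested fewer genes. With the second, the falls over all genes also dropped, from 22.7% to 9.11%, and the cause was not tested. With single arrays left out, 20% to 24.4% of the guidance genes were higher and 24.4% to 33.3% lower. Of all genes 17.3% to 22.3% were then higher and 14.7% to 22.3% lower. The median difference of -0.13 was -0.0810 after a further quantile normalization, 0.10 without the dimmest 40% and -0.1515 to -0.0811 when single arrays were left out. Of the downstream list, 16 were lower, against 8 with the random block, 27 with MesPC replicates 1 to 3 alone and 10 to 17 when single arrays were left out. With MesPC replicates 1 to 3 alone 27% of all genes were lower. No call of a guidance gene reversed, and 16 of the 26 passed in every setting that measured them: Efnb1, Ntn1, Neo1, Plxnb1, Plxnb2, Rgma, Sema3c and Sema6d higher, and Epha4, Epha5, Robo2, Efna1, Plxnd1, Sema4a, Sema4d and Sema6b lower. Single arrays whose omission cost a call were MesE11 replicate 1 (Epha2, Epha3, Efna5, Unc50, Sema3b, Sema4f, Sema6c), 2 (the same without Unc50), 3 (Epha2, Efna5, Unc50, Sema4f, Sema6c), and MesPC replicates 1 and 2 (Epha3, Efna5, Sema3b, Sema6c), 3 (Epha2, Efna5, Sema3b, Sema6c), 4 (Epha2, Sema6c), 5 (Epha2, Epha3) and 6 (Epha2, Efna5, Sema6c). Calls were gained by Slit3 and Plxna1 (quantile normalization again), Epha10, Unc5a and Plxna1 (centring), Ephb4 (no dim probe sets), Ephb4 and Plxna1 (gene means), Epha10, Ephb4, Robo1, Nrp1, Plxna1, Plxna3 and Sema5a (MesPC replicates 1 to 3 alone), Ephb4, Slit1, Unc5cl, Plxnc1, Sema3a and Sema6a (replicates 4 to 6 alone), and, with 1 array left out, Unc5a (MesE11 replicate 1), Unc5cl (MesE11 replicate 2), Slit1 (MesPC replicate 2), Ephb4 and Plxna1 (MesPC replicate 4, 5 or 6).

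Whether replicate numbers shared by MesE11 and MesPC pair the samples was not settled. The deviations of arrays with the same number from their group means correlated at 0.02, 0.01 and -0.09. Deviations from the means of their array sets correlated at 0.08, -0.12 and -0.11. The embryos were mixed before they were grouped, so low correlations do not exclude a pairing. With the replicate block, which used MesPC replicates 1 to 3 alone, 11 guidance genes were higher (24.4%) and 20 lower (44.4%), and 25 of the downstream list were lower. In the same fit 24.7% of all genes were higher and 25.5% lower. The replicate block gained Unc5a and 6 of the 7 genes gained with that set alone, Sema5a being the other.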
